A study of Mus musculus with 24 samples.

Results

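The 38 interferon-stimulated genes described here belong to the antiviral programme that interferons are known to switch on. They were chosen by name, with earlier results of these data known. All 38 had a row among the 49452 genes of a table of FPKM values (read fragments scaled to transcript length and library size), 37 found by symbol and Mx1 by its Ensembl gene ID because its symbol cell was blank. The study asked what loss of the long non-coding RNA H19 does in brown and white fat cells, and sequenced poly(A) RNA in 24 libraries from cultures of stromal vascular fraction (SVF) cells, the non-adipocyte fraction of fat that holds adipocyte precursors. The cells came from interscapular brown adipose tissue (BAT) or perigonadal visceral white adipose tissue (vWAT) of male C57BL/6 mice 6 to 8 weeks old. They were nucleofected with an siRNA against H19 (siH19) or a non-targeting siRNA (siCtrl), and RNA was taken before adipogenic induction (d0) or on day 3 of differentiation (d3), which gave 8 groups of 3 libraries. Every group, the controls included, had received an siRNA, so no library here shows these genes in untransfected cells. All siH19 libraries carry the same siRNA label, so effects of that siRNA itself and of H19 loss cannot be told apart. The media that start differentiation differed by depot, with indomethacin and triiodothyronine named for BAT and rosiglitazone for vWAT. Sample numbers also ran in separate series for BAT and vWAT libraries, and what a series stands for is not known here. Depot and series cannot be told apart. BAT tissue was pooled from several mice where needed, and no source used here says whether the 3 libraries of a group came from separate animals, so p-values measure the spread between these libraries, which may be technical.

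Type I interferons bind the receptor IFNAR on the cell surface, and the receptor-bound kinases JAK1 and TYK2 are then activated. The complex ISGF3, of which STAT2 and IRF9 are subunits, binds the interferon-stimulated response element (ISRE) in promoters, whereas interferon gamma acts mainly through the gamma-activated site (GAS). Many of the induced proteins sense viral RNA or DNA, block translation or viral entry, or present antigen, and some of them, such as STAT2, IRF9, IRF7 and RIG-I (Ddx58), feed back on the pathway itself.

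The summed FPKM of a library lay between 710794 and 841456, and 12311 to 13125 genes reached 1 FPKM. Replicates correlated with Pearson's r of 0.988 to 0.991 on the log2 scale across genes, which are not independent replicates. The read depth is not given; from the spacing of low values BAT libraries had 0.820 to 0.976 times and vWAT libraries 1.01 to 1.16 times a common depth. H19 fell in all 4 siRNA comparisons. Its FPKM of 108, 160 and 122 in BAT siCtrl d0 compared with 2.82, 5.20 and 5.05 in BAT siH19 d0, and that of 11.7 ± 0.53 in vWAT siCtrl d0 with 1.21 ± 0.57 in vWAT siH19 d0 (mean ± SD, n = 3). On day 3 the means were 89.8 against 13.7 in BAT and 8.59 against 0.528 in vWAT.

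Libraries of the vWAT d0 groups stood apart from each other in the genes described here. Replicate 2 held the highest value of its group for 30 of the 36 members that could be ranked in vWAT siCtrl d0 and for 35 of 38 in vWAT siH19 d0, whereas it was highest for 31.7% and 27.7% of all genes. For Ifit3, an inhibitor of viral RNA translation named here because its spread was wide, the 3 libraries gave 2.01, 10.8 and 4.34 FPKM in vWAT siCtrl d0 and 6.59, 22.4 and 9.61 FPKM in vWAT siH19 d0. In vWAT on day 3, replicate 1 was highest for 20 of 33 members in siCtrl and 25 of 33 in siH19 (32.7% and 32.8% of all genes). The members' counts and medians for the siRNA effect in vWAT at d0, and for the interactions that use it, are given also without replicate 2 of both d0 groups, an alternative chosen after seeing the data.

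The promoters of several members carry the ISRE. Windows of 250 bases before to 50 bases after the annotated start, from RefSeq on GRCm38.p6, were at hand for 29 of the 38 members. The core, GAAA and a further GAAA with any 2 bases between them, or TTTC and TTTC on the other strand, lay in the windows of 12 of these 29, or 41.4%, compared with 3.99% of 27025 genes, and the GAS consensus TTCNNNGAA, which reads alike on both strands, in 8, or 27.6%, compared with 9.55%. Matches were counted also where they overlapped. The 12 were Stat2, Ifih1, Ddx58, Eif2ak2, Oas1a, Oas3, Ifit1, Ifit3, Isg15, Rsad2, Bst2 and Ifitm3. Dhx58, Zbp1, Oas2, Usp18, Mx1, Mx2, Parp9, Parp14 and Rtp4 had no entry in the table of windows. Stretches of 30 bases around the core are shown for 7 of the 12, because more members had the core than the GAS consensus. They are written along the gene's own strand with the core in capitals.
Isg15: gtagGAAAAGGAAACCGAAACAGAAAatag
Oas1a: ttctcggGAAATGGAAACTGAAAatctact
Bst2: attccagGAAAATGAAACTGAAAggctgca
Stat2: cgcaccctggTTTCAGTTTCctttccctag
Eif2ak2: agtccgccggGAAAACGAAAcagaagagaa
Ifit3: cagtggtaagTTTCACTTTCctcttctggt
Ifit3: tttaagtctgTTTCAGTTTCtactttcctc
Ifitm3: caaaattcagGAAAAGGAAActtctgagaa
Ifitm3: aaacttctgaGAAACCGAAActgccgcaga

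In Isg15 (chr4:156200871-156200900, minus strand) 3 matches overlapped in 1 run that began 78 bases before the start. In Oas1a (chr5:120907523-120907552, minus strand) and Bst2 (chr8:71537580-71537609, minus strand) 2 matches overlapped, beginning 20 and 130 bases before the start. The Stat2 match (chr10:128270266-128270295, plus strand) began 222 bases before the start and the Eif2ak2 match (chr17:78882535-78882564, minus strand) 18 bases after it. Ifit3 had separate matches 156 and 122 bases before its start (chr19:34583363-34583392 and chr19:34583397-34583426, plus strand). Both matches of Ifitm3 lay just after its start (chr7:141010723-141010752 and chr7:141010706-141010735, minus strand). The match in Bst2 and the second-listed match in Ifitm3 overlapped a GAS match. A match describes these letters and does not show that a factor binds there.

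The members spanned a wide range of expression. Ifitm3, which blocks fusion of enveloped viruses with endosomes, averaged 523 FPKM over the 24 libraries, followed by Lgals3bp, a secreted glycoprotein that binds galectins, with 322 FPKM, and Bst2, which tethers budding virions to the cell, with 61.1 FPKM. Isg15, the ubiquitin-like modifier, averaged 17.8 FPKM and ran from 1.40 to 92.0 FPKM between libraries. At the other end Mx1 averaged 0.261 FPKM and Oas3 0.243 FPKM, with 0 in 5 libraries and in 1 library. Mx1, Mx2 and the nucleotide-acting enzymes Rsad2 (viperin) and Cmpk2 reached 1 FPKM in at most 6 of the 24 libraries. Mx2 is annotated as a polymorphic pseudogene.

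**Figure D1:**
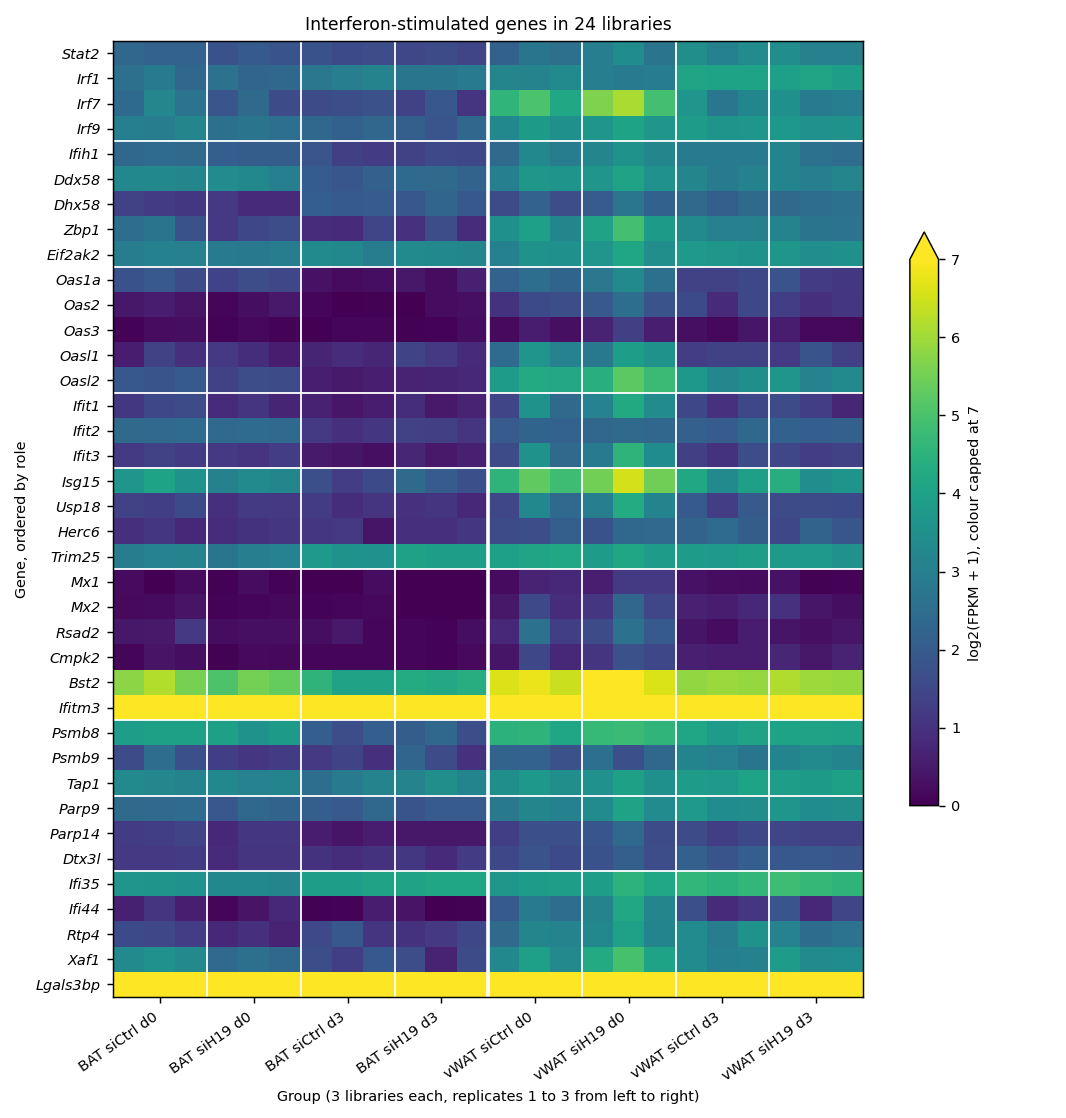
Level of each of the 38 genes (rows, ordered by role) in each of the 24 libraries (columns, 3 per group), as log2(FPKM + 1) with the colour capped at 7. The vWAT siH19 d0 libraries, and their replicate 2 above all, are the brightest for most genes, while Ifitm3 and Lgals3bp are above the cap in every library.

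Expression was highest in vWAT precursors with siH19. The group mean was highest in a vWAT group for 36 of 38 members and in vWAT siH19 d0 for 27 of 38. It was highest in vWAT siCtrl d0 for 1 member and in vWAT siCtrl d3 for 5. The mean of log2(FPKM + 1) over the 38 genes was 2.32, 2.34 and 2.48 in the BAT siCtrl d0 libraries and 2.02, 2.07 and 2.12 in BAT siH19 d0. On day 3 it was 1.71 to 1.79 in BAT siCtrl and 1.79 to 1.85 in BAT siH19. In vWAT it was 2.79, 3.07 and 3.41 for siCtrl d0 and 3.39, 3.41 and 3.97 for siH19 d0, and 2.73 to 2.99 on day 3 in either siRNA group. The siH19 and siCtrl libraries thus did not overlap in BAT, with siH19 lower at d0 and, by a narrow gap (1.794 against 1.789), higher on day 3, and they did overlap in vWAT at d0 and d3.

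**Figure D2:**
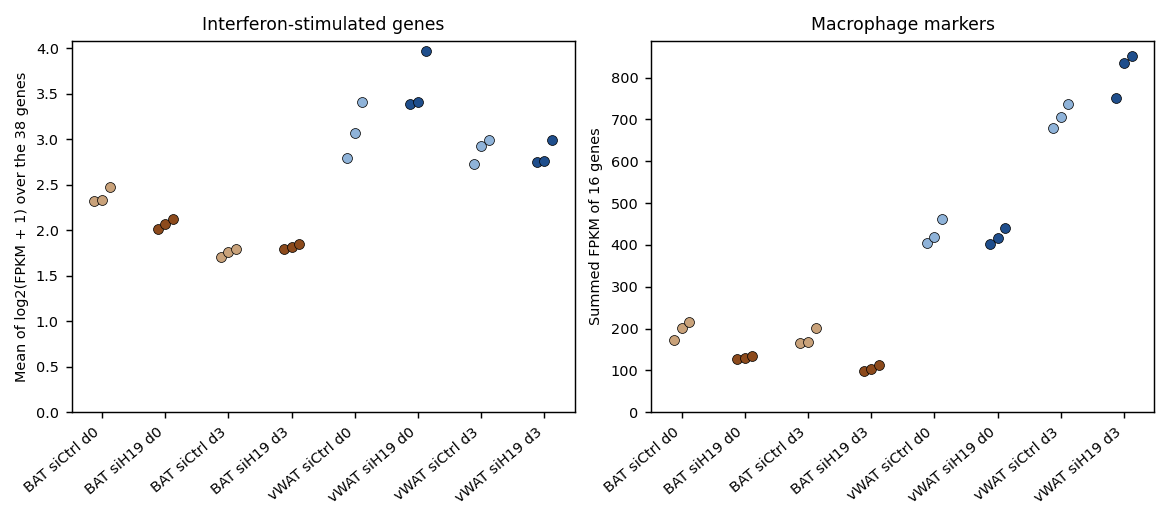
Left, mean of log2(FPKM + 1) over the 38 interferon-stimulated genes, and right, summed FPKM of 16 macrophage markers, with 1 point per library placed from low to high within each of the 8 groups. In BAT at d0 both measures were lower with siH19 (macrophage sum 127 to 135 against 173 to 215 FPKM), whereas in vWAT at d0 the marker sums covered the same range.

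The siRNA comparisons used limma on log2(FPKM + 1) over all genes with at least 1 FPKM in 3 of the 6 libraries, with Benjamini-Hochberg adjustment over all genes tested. Calls required an adjusted p below 0.05 together with a minimum change of 1.3-fold. Differences below are log2(FPKM + 1) in siH19 minus siCtrl with their SE, and they understate the change of genes with low FPKM. The members rose and fell together between libraries, in vWAT at d0 above all, so a count of members is not a count of independent observations. Because the members were chosen with earlier results of these data known, the shares over all genes beside such counts are a description.

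In BAT precursors at d0 most of the interferon-stimulated genes were lower with siH19. The group mean was lower in siH19 for 37 of the 38 members, with Herc6 the exception, compared with 53.7% of the genes above 0. Of the 30 members that passed the filter on low values, 1 was called, Xaf1, against 1.32% of the 12651 genes tested that were called lower, and none was called higher (background 0.617%). The members' median difference was -0.30, against -0.03 over all genes tested. For 16 of the 30 every siH19 value was below every siCtrl value, which held for 16.1% of all genes, and no member showed the reverse (10.6%). An unadjusted p below 0.05 was reached by 15 of the 30, against 19.6% of all genes. Rtp4 passed the filter only through the siCtrl libraries, so it had to be lower in siH19 without overlap. It is counted in the 30 and the 16, and 1 of the other 29 was called.

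Xaf1, which counteracts the caspase inhibitor XIAP, had 9.24, 10.6 and 8.74 FPKM in siCtrl and 4.25, 4.98 and 4.12 FPKM in siH19 BAT precursors. It fell by 0.95 ± 0.10 (adjusted p = 0.0188 by limma; 0.017 to 0.0742 over 13 alternatives), and the libraries did not overlap. The call was lost without any 1 of the 3 siCtrl libraries or without siH19 replicate 1 or 3, with adjusted p between 0.0535 and 0.0724.

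Ifi35, an interferon-induced leucine zipper protein, had 11.6, 11.3 and 10.7 FPKM in siCtrl and 8.65, 8.71 and 8.01 FPKM in siH19, a difference of -0.37 ± 0.07 (adjusted p = 0.0431) that stayed under the minimum of 1.3-fold. Irf9, the DNA-binding subunit of ISGF3, had 7.11, 6.65 and 8.13 against 4.95, 5.47 and 4.85 FPKM, a difference of -0.44 ± 0.09 (adjusted p = 0.0607). Rtp4, a transporter chaperone with antiviral activity, had 2.00, 1.80 and 1.40 against 0.708, 0.948 and 0.616 FPKM, with -0.64 ± 0.13 (adjusted p = 0.0585). None of these 3 passed the call. The libraries of Ifi35 and Irf9 did not overlap, and for Rtp4 the filter fixed that in advance.

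Isg15 had 11.7, 15.8 and 11.02 FPKM in siCtrl and 7.42, 8.92 and 8.19 FPKM in siH19 BAT precursors (-0.58 ± 0.14, adjusted p = 0.0829). Irf7, the transcription factor that amplifies type I interferon production, had 4.22, 8.43 and 5.37 against 2.60, 4.36 and 2.05 FPKM (-0.81 ± 0.28, adjusted p = 0.188). Isg15 libraries did not overlap, while the highest siH19 library of Irf7 lay above the lowest siCtrl library. Oasl2, a member of the oligoadenylate synthetase family, had 2.80, 2.54 and 2.94 against 1.54, 2.19 and 2.02 FPKM (-0.37 ± 0.12, adjusted p = 0.147), without overlap.

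By role in BAT at d0, the median difference was -0.42 over the 4 transcription factors (Stat2, Irf1, Irf7 and Irf9) and -0.27 over the 5 sensors of foreign RNA or DNA (Ifih1, Ddx58, Dhx58, Zbp1 and Eif2ak2). It was -0.14 over the antigen-processing genes Psmb8, Psmb9 and Tap1, -0.32 over Oas1a and Oasl2, -0.22 over Isg15, Usp18, Herc6 and Trim25, and -0.09 over the Ifit genes; differences between roles were not tested. Eif2ak2, the kinase PKR that stops translation on double-stranded RNA, had 6.65, 7.38 and 7.34 against 6.48, 6.05 and 6.86 FPKM (adjusted p = 0.439). Ifit2, which binds RNA and restrains its translation, had 4.36, 4.24 and 4.40 against 4.26, 4.48 and 4.21 FPKM, a difference of -0.01 ± 0.07. Psmb8, an immunoproteasome subunit, had 13.8, 14.8 and 14.7 against 14.9, 11.1 and 13.1 FPKM (adjusted p = 0.492). The libraries of Eif2ak2, Ifit2 and Psmb8 overlapped, and a p above the threshold does not show that they were equal.

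Macrophage markers moved with the BAT groups. All 13 of the 16 markers that passed the filter were lower in siH19 at d0, where 57% of all genes tested were lower. Of the 13, 4 were called lower (1.32% of all genes), among them Tyrobp (13.2 to 8.32 FPKM), Lyz2 (121 to 77.6 FPKM) and C1qb (7.03 to 3.26 FPKM). Their summed FPKM was 173, 202 and 215 in BAT siCtrl d0 and 127, 130 and 135 in BAT siH19 d0, and none of the 16 was at 0 in every library. The 10 dendritic and lymphoid markers summed to at most 0.507 FPKM in these groups, with Siglech at 0 in all 6 libraries. In bulk samples, fewer cells of a type and less RNA per cell cannot be told apart, and the part of macrophages in the members' differences was not tested. Adipocyte markers were lower as well, with 6 of 8 called lower in BAT at d0 (1.32% of all genes).

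In vWAT precursors at d0 the same genes were mostly higher with siH19. The group mean was higher in siH19 for 36 of the 38 members, with Irf1 and Trim25 the exceptions, compared with 43.3% of genes above 0. By limma none of the 36 members that passed the filter was called in either direction, with a background of 0.329% called higher and 1.20% called lower among 13063 genes. An unadjusted p below 0.05 was reached by 13 of the 36, against 17.6% of all genes. Without siCtrl replicate 1, 2 or 3 it was 4, 23 or 5 members, against 1873 of 12910, 1785 of 12912 or 1960 of 12904 genes. Without siH19 replicate 2 it was 8 members. The median difference over the members was 0.48, against -0.03 over all genes. For 11 of the 36 every siH19 value exceeded every siCtrl value, compared with 8.34% of all genes, and Irf1 was the only member with the reverse.

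Without replicate 2 of both groups the median was 0.44 over 34 members, 32 of them were above 0, and again none was called, so the direction did not rest on that replicate. Fitting all 24 libraries together called 4 members higher, Oasl2, Ifi35, Xaf1 and Parp9 (adjusted p = 0.0272 to 0.0461), where 110 of 14694 genes were called higher. Leaving out siH19 replicate 2 alone lowered the median to 0.29, and leaving out siCtrl replicate 1 alone gave 0.32.

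Isg15 had 22.4, 38.1 and 27.3 FPKM in siCtrl and 44.4, 92.0 and 43.8 FPKM in siH19 vWAT precursors (0.96 ± 0.32, adjusted p = 0.201 by limma; 0.81 without replicate 2). Xaf1 had 8.65, 14.3 and 8.77 against 18.5, 30.4 and 15.6 FPKM (0.94 ± 0.28, adjusted p = 0.162; 0.89 without replicate 2). Oasl2 had 13.2, 18.6 and 17.7 against 20.4, 36.8 and 26.1 FPKM (0.69 ± 0.22, adjusted p = 0.183; 0.57 without replicate 2). For these 3 genes the groups did not overlap.

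Irf7 had 22.7, 31.4 and 17.3 FPKM in siCtrl and 49.0, 67.7 and 28.9 FPKM in siH19 (0.96 ± 0.33, adjusted p = 0.212). Its lowest siH19 library lay below the highest siCtrl library. Usp18, which removes ISG15 from proteins and restrains the receptor, and Ifit3, both named for their size after their values were seen, differed by 1.10 ± 0.51 and 1.10 ± 0.58, with adjusted p of 0.331 and 0.386. Their libraries overlapped too, since the siCtrl library of replicate 2 exceeded the siH19 library of replicate 1 in both.

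Parp9, which modifies host and viral targets with its partner Dtx3l, had 6.02, 8.26 and 7.39 against 9.48, 15.4 and 9.36 FPKM (0.57 ± 0.20, adjusted p = 0.216). Psmb8 had 21.6, 22.3 and 16.4 against 24.8, 26.5 and 23.1 FPKM (0.30 ± 0.12, adjusted p = 0.268), and Ifitm3 691, 713 and 611 against 808, 876 and 730 FPKM (0.26 ± 0.09, adjusted p = 0.195). All 3 separated the groups by library. Trim25, the ligase that activates RIG-I, went the other way with 14.5, 15.9 and 16.8 against 13.5, 16.5 and 13.3 FPKM (-0.12 ± 0.10, adjusted p = 0.579), with overlap.

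By role, the median difference in vWAT at d0 was 1.08 over the 3 Ifit genes, 0.61 over 4 genes of the OAS family (Oas1a, Oas2, Oasl1 and Oasl2) and 0.65 over Isg15, Usp18, Herc6 and Trim25. It was 0.46 over the 5 sensors, 0.41 over the 4 transcription factors and 0.14 over the antigen-processing genes. Members with the ISRE core in their window had a median of 0.50 (11 tested), and members with a window but no core 0.30 (17 tested), given as a description with no test. In BAT at d0 these medians were -0.30 and -0.24.

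Macrophage markers did not part the vWAT d0 groups. Their sums were 404, 418 and 463 FPKM in siCtrl and 403, 416 and 441 FPKM in siH19, and none of 15 was called. Dendritic and lymphoid markers summed to 1.57 to 2.40 FPKM in siCtrl and 0.610 to 1.62 FPKM in siH19. Adipocyte markers fell as in BAT, with 6 of 8 called lower (1.20% of all genes), among them Fabp4 (2536 to 1458 FPKM) and Plin1 (253 to 144 FPKM).

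**Figure D3:**
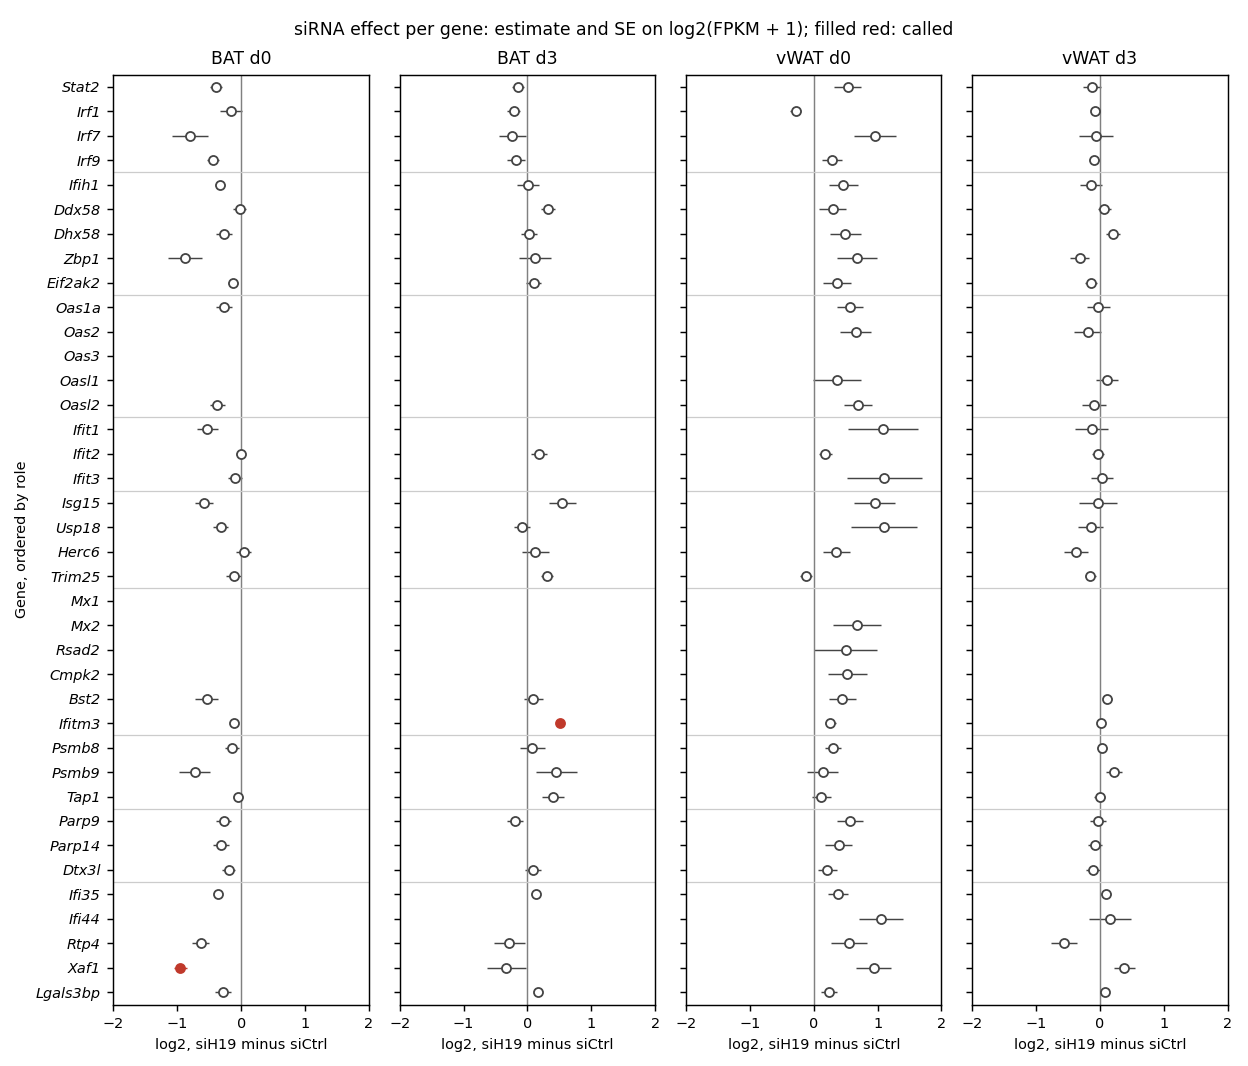
Difference of each gene between siH19 and siCtrl (points, log2(FPKM + 1), bars are SE) in the 4 combinations of depot and day, each from 3 against 3 libraries, with called genes in filled red and genes under the filter left blank. Points lie mostly left of 0 in BAT d0 and right of 0 in vWAT d0, but only Xaf1 in BAT d0 and Ifitm3 in BAT d3 were called.

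At d0 the members therefore leaned in opposite directions in the depots, and the difference itself was tested with an interaction term over the 12 libraries. Counts of members here are again not counts of independent observations. Of the 30 members tested in both depots, 27 were lower in BAT and higher in vWAT, compared with 19.8% of the 12617 genes tested in both, and these comparisons share no library. On day 3 it was 1 of 25, against 19.7%. The siRNA effect in BAT minus that in vWAT was below 0 for 34 of 36 members (48.8% of all genes). The median was -0.81, against 0.01 over all genes. Only Xaf1 passed, at -1.89 ± 0.33 (adjusted p = 0.0321 by limma), where 0.569% of 13708 genes were called lower and 0.452% higher. An unadjusted p below 0.05 was reached by 24 of 36 members, against 13.3% of all genes. Of the 36, Oas2, Oasl1, Mx2, Rsad2, Cmpk2 and Ifi44 did not pass the filter in BAT at d0. They entered through the vWAT libraries, where they were higher, and their BAT effect is compressed on this scale. All of them are counted in the 34, and Oas2 and Ifi44 also in the 24. Without replicate 2 of both vWAT groups Xaf1 gave -1.84 (adjusted p = 0.00865), and over 19 alternatives its adjusted p ran from 0.00865 to 0.0751. It lost the call in 9 of the 12 fits that left out 1 library. Isg15 gave -1.54 ± 0.39 (adjusted p = 0.106), Oasl2 -1.06 ± 0.27 (adjusted p = 0.105) and Irf7 -1.76 ± 0.48 (adjusted p = 0.132), none of them past the threshold.

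**Figure D4:**
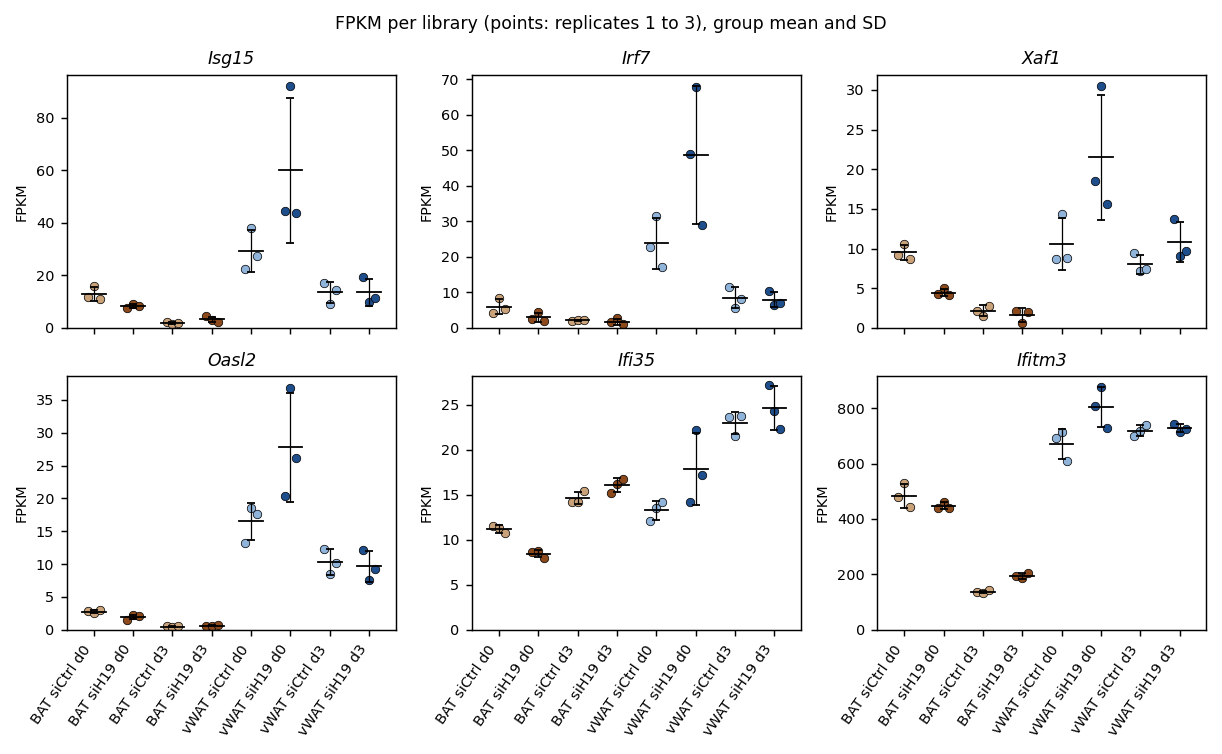
FPKM of 6 members in each library of the 8 groups (points in replicate order, line and bar are mean and SD, axes start at 0). For Isg15, Irf7, Xaf1 and Oasl2 the vWAT siH19 d0 group is the highest and replicate 2 its top library, whereas Ifi35 is highest on day 3 in vWAT and Ifitm3 fell between d0 and d3 in BAT but not in vWAT.

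On day 3 the pattern was no longer seen. In BAT cells 1 of the 25 members that passed the filter was called higher, Ifitm3, where 6.39% of 12500 genes were called higher and 2.18% lower. Trimmed-mean scaling changed the share of higher calls among all calls from 74.6% to 57.2%. Ifitm3 had 136, 133 and 142 FPKM in siCtrl and 193, 185 and 206 FPKM in siH19, and it rose by 0.50 ± 0.05 (adjusted p = 0.00304; called in all 13 alternatives). Its groups did not overlap. Trim25 had 12.8, 10.9 and 10.6 against 15.1, 13.8 and 14.1 FPKM (0.31 ± 0.09, adjusted p = 0.0581), and Isg15 2.29, 1.40 and 1.95 against 4.39, 3.09 and 2.27 FPKM (0.54 ± 0.21, adjusted p = 0.13). Lgals3bp had 386, 341 and 350 against 401, 409 and 398 FPKM (0.17 ± 0.05, adjusted p = 0.0756), without overlap, after 368, 445 and 325 against 288, 340 and 299 FPKM at d0 (-0.29 ± 0.12, adjusted p = 0.258), with overlap. The members' median was 0.09, the all-gene median 0.05, and leaving out BAT siCtrl d3 replicate 2 or 3 lowered the former to 0.01. No sensor was called, no OAS gene passed the filter, and Ifit2 was the 1 Ifit gene that did, with 0.18 ± 0.13. For 4 members every siH19 value exceeded every siCtrl value (24.1% of all genes), and for none was it the reverse (13.0%). An unadjusted p below 0.05 was reached by 5 of 25, against 31.3% of all genes, and by 2 without siCtrl replicate 2 and 3 without siH19 replicate 1. All 4 transcription factors had a lower mean, with a median of -0.20.

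Macrophage markers stayed lower in BAT on day 3. Their sum was 165, 168 and 201 FPKM in siCtrl and 98.3, 104 and 114 FPKM in siH19. Of 11 tested, 6 were called lower, where 2.18% of all genes were (C1qc, Lyz2 and C1qa had the lowest adjusted p). Stromal precursor markers went the other way, with 6 of 6 tested above 0 (median 0.43) and 4 called higher (6.39% of all genes), among them Ly6a (252 to 456 FPKM). Their sum was 726 to 841 FPKM in siCtrl and 1086 to 1206 FPKM in siH19, and the part of either cell type in the rise of Ifitm3 was not tested.

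In vWAT on day 3 none of 33 members was called by limma, where 0.00764% of 13097 genes were called higher and 0.0229% lower, and 1 member had an unadjusted p below 0.05, against 1315 of the 13097 genes. The median was -0.03, with 12 members above 0 and 21 below. Isg15 had 17.2, 9.27 and 14.3 FPKM in siCtrl and 19.6, 9.81 and 11.2 FPKM in siH19, a difference of -0.03 ± 0.30. Irf7 had 11.5, 5.70 and 8.23 against 10.5, 6.36 and 7.02 FPKM. No member separated the groups by library, against 7.68% of all genes higher and 8.54% lower. Macrophage markers did differ in sum here, with 679, 705 and 737 FPKM in siCtrl and 752, 835 and 850 FPKM in siH19. Of 15 markers tested 14 were higher with siH19, against 47.6% of all genes, and none was called.

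Tests of the difference between siRNA effects on day 3 called Ifitm3 (0.48 ± 0.06, adjusted p = 0.00175) and Trim25 (0.46 ± 0.12, adjusted p = 0.0377) as more positive in BAT than in vWAT, among 33 members, with a background of 7.02% higher and 3.52% lower. An unadjusted p below 0.05 was reached by 2 members (25.6% of all genes). Trimmed-mean scaling changed the share of higher calls over all genes from 66.6% to 46.9% and left Ifitm3 as the 1 member called. Ifitm3 was called in all 18 alternatives and Trim25 in 6 of 18. Between days in BAT the siRNA effect was more positive on d3 than at d0 for 30 of 31 members (64.9% of all genes). The median was 0.35, against 0.09 over all genes. Called were Ifitm3 (0.61 ± 0.09, adjusted p = 0.00252), Ifi35 (0.50 ± 0.08, adjusted p = 0.00543), Isg15 (1.13 ± 0.27, adjusted p = 0.028) and Oasl2 (0.53 ± 0.14, adjusted p = 0.0425), where 7.79% of all genes were called higher and 1.27% lower. In this test 13 of 31 had an unadjusted p below 0.05, against 3263 of 13575 genes, and 7 without siCtrl d0 replicate 2 or 8 without siCtrl d3 replicate 2. Ifitm3 and Ifi35 held in all 18 alternatives, Isg15 in 11 and Oasl2 in 2. On day 3 Oas1a, Oasl2, Ifit1, Ifit3 and Parp14 lay under 1 FPKM in every BAT library. They passed the filter only through d0, and their day 3 effect is compressed on this scale. They are counted in the 30 of 31. With trimmed-mean scaling the share of higher calls was 66.4% instead of 86.0% over all genes, and 3 members were called. In vWAT the effect was more negative on d3 than at d0 for 34 of 36 members (43.9% of all genes). The median was -0.51. Mx2, Rsad2 and Cmpk2, counted in the 34, passed the filter only through d0. No member was called by limma (background 1.46% higher, 0.272% lower), and 8 had an unadjusted p below 0.05 (13.9% of all genes). When 1 library was left out that count ran from 1, without siH19 d3 replicate 3, to 21, without siCtrl d0 replicate 2. The median was -0.30 without siH19 d0 replicate 2, -0.34 without siCtrl d0 replicate 1 and -0.44 without replicate 2 of both d0 groups.

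The comparisons of days and depots share siCtrl libraries with the siRNA comparisons and with each other. Many members were lower on day 3 in BAT control cells. From d0 to d3 in BAT siCtrl, 18 of the 30 members tested fell and 2 rose, where 35.3% of 13001 genes fell and 29.9% rose. Isg15 went from a mean of 12.9 ± 2.6 to 1.88 ± 0.45 FPKM (-2.26 ± 0.17 on the log2 scale, adjusted p = 2.3e-05) and Psmb8 from 14.4 ± 0.55 to 2.92 ± 0.60 FPKM (-1.99 ± 0.12, adjusted p = 8.9e-06). Ifitm3 fell from 484 ± 44 to 137 ± 4.6 FPKM and Xaf1 from 9.53 ± 0.97 to 2.16 ± 0.67 FPKM. Those that rose were Dhx58, the RIG-I-like receptor LGP2, and Trim25, from 7.37 ± 0.49 to 11.4 ± 1.2 FPKM. Of the 30 members, 5 passed the filter only through their d0 libraries and so had to differ (Oas1a, Oasl2, Ifit1, Ifit3 and Parp14), and 13 of the other 25 fell. Cell-type markers moved with the day: the summed FPKM of stromal precursor markers was 3637 to 3949 at d0 and 726 to 841 on day 3, and that of adipocyte markers 3171 to 3448 and 38356 to 40089. Their part in the members' differences was not tested.

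With siH19 in BAT, 12 of 29 members fell and 6 rose from d0 to d3, where 29.8% of 12962 genes fell and 30.8% rose. The members that rose were Dhx58, Eif2ak2, Trim25, Ifi35, Lgals3bp and Rtp4. Oas1a, Oasl2 and Ifit3 passed the filter only through d0 and Rtp4 only through d3, and of the other 25 members 9 fell and 5 rose. Under trimmed-mean scaling 13 of 29 fell and 3 rose. Isg15 fell from 8.18 ± 0.75 to 3.25 ± 1.1 FPKM and Ifitm3 from 447 ± 12 to 195 ± 10 FPKM.

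In vWAT members moved both ways. In siCtrl cells 8 of 33 fell and 7 rose (background 23.9% and 26.3% of 13368 genes). Those that fell were Irf7, Oas1a, Oasl1, Oasl2, Isg15, Bst2, Psmb8 and Ifi44, and those that rose Stat2, Irf1, Dhx58, Psmb9, Parp9, Dtx3l and Ifi35. Irf7 went from 23.8 ± 7.1 to 8.48 ± 2.9 FPKM and Irf1, an interferon-induced transcription factor, from a mean of 8.29 to 15.7 FPKM (0.85 ± 0.08, adjusted p = 9.07e-05). With siH19, 21 of 36 fell and 3 rose (background 24.5% and 28.2% of 13357 genes), including Isg15 from 60.1 ± 27.7 to 13.5 ± 5.3 FPKM. Irf1, Psmb9 and Ifi35 were the ones that rose. Mx2, Rsad2 and Cmpk2 passed the filter only through d0, and 18 of the other 33 fell. Leaving out siH19 d0 replicate 2 gave 15 of 33 that fell and 4 that rose. Psmb9 and Tap1 overlap on opposite strands, as do Parp9 and Dtx3l, and whether strand was used in counting is not stated, so reads of these pairs cannot be told apart with certainty, nor can those of close relatives within the Oas and Ifit families.

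Control cells of BAT had lower levels than those of vWAT, a difference that cannot be told apart from that between the sample series. At d0, 19 of 34 members were lower in BAT and 1 was higher, where 21.0% of 13139 genes were lower and 10.2% higher. Trimmed-mean scaling moved the median of all genes from -0.13 to -0.01, changed the share of higher calls from 32.8% to 49.1% over all genes and left 14 members lower and 1 higher. Without vWAT siCtrl d0 replicate 2 it was 15 of 32 lower, and Oas2 passed the filter only through the vWAT libraries. Oasl2 was at 2.76 ± 0.20 against 16.5 ± 2.9 FPKM (-2.20 ± 0.13, adjusted p = 3.4e-05), Irf7 at 6.01 ± 2.2 against 23.8 ± 7.1 FPKM and Rtp4 at 1.73 ± 0.31 against 6.77 ± 2.1 FPKM. Lgals3bp was the one member higher in BAT, with 368, 445 and 325 against 237, 284 and 232 FPKM (0.59 ± 0.13, adjusted p = 0.0103). Xaf1 did not pass (-0.11 ± 0.19, adjusted p = 0.675).

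On day 3, 27 of 30 members were lower in BAT siCtrl than in vWAT siCtrl cells and none was higher by limma, where 32.1% of 13120 genes were lower and 16.5% higher. The median difference was -1.26, against -0.16 over all genes. Trimmed-mean scaling moved that all-gene median to -0.03, changed the share of higher calls from 33.9% to 45.8% and gave 26 members lower and 1 higher. Ifitm3 stood at 137 ± 4.6 against 718 ± 20 FPKM (-2.38 ± 0.04, adjusted p = 1.54e-07). Oas1a, Oasl1, Oasl2, Ifit3 and Parp14 passed the filter only through the vWAT libraries, and 22 of the other 25 were lower. The macrophage marker sum was also lower in BAT, 173 to 215 against 404 to 463 FPKM at d0 and 165 to 201 against 679 to 737 FPKM on day 3, and mesothelial markers parted the depots as well, with sums of 5.14 to 5.96 against 230.0 to 270.4 FPKM at d0 and 1.36 to 3.50 against 58.6 to 76.2 FPKM on day 3. The part of either in the depot difference was not tested.

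The interferon genes themselves were hardly detected. Ifna2, Ifna4, Ifna5, Ifnl2 and Ifnl3 were listed at 0 in all 24 libraries. Ifnb1, which encodes interferon beta, was listed at 0 in both siRNA groups of BAT and in vWAT siH19, with a mean of 0.0245 FPKM in vWAT siCtrl d0, and Ifng averaged 0.0495 FPKM in vWAT siH19 d0 and 0 elsewhere. Ifnar1, which encodes 1 chain of the receptor, had group means from 16.8 to 46.7 FPKM. Of 24 genes for interferons, receptors and signalling, 16 were tested in each siRNA comparison, and 1 was called, Ifnar1 in BAT on day 3, which rose there (0.57 ± 0.09, adjusted p = 0.0094), 1 of 16 beside the 6.39% of all genes called higher.

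Further genes of the pathway were counted in the same way. Among 48 other interferon-stimulated genes, 31 of 38 tested were lower with siH19 in BAT at d0 (median -0.16), where 57% of all genes tested were lower. Of the 38, 2 were called lower (1.32% of all genes), Ifi27l2a (38.1 to 20.0 FPKM) and the GTPase Iigp1 (13.9 to 7.88 FPKM). In vWAT at d0, 41 of 45 were higher (median 0.22), where 40.5% of all genes tested were higher, and none was called. On day 3, Samhd1, a nucleotide hydrolase that limits reverse transcription, and Tdrd7 rose in BAT, 2 of 34 tested where 6.39% of all genes were called higher, and none of 43 was called in vWAT. Of 14 genes for antigen presentation, Tapbp fell in BAT at d0 from 110 to 76.7 FPKM, 1 of 11 tested where 1.32% of all genes were called lower. H2-T23 rose in BAT on day 3, 1 of 10 tested where 6.39% of all genes were called higher. Of 16 genes for upstream sensing with a row, Tmem173, the adaptor STING, rose in BAT on day 3 from 4.03 to 6.19 FPKM (adjusted p = 0.0113 by limma). It was 1 of 13 tested, where 6.39% of all genes were called higher. Irf8 was not analysed here.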

How the data were processed

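Poly(A) RNA was sequenced in 24 libraries (8 groups of depot, siRNA and day, 3 each). The deposited values are FPKM per gene on GRCm38, made by the authors with TopHat2 2.0.10 and Cufflinks 2.2.1 per the labels' processing notes, which also list STAR and DESeq2; the paper's methods give another Cufflinks version and another read layout. The table does not name its unit. FPKM are not counts, so no count test was run and depth is unknown beyond relative spacing of low values.

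Blank or double symbols were filled by Ensembl ID (28802 genes; 254 had none). Fits used limma 3.58.1 (R 4.3.3; eBayes with an intensity trend) on log2(FPKM + 1), each pair on its 6 libraries and each interaction on 12, for genes with FPKM of at least 1 in 3 libraries. Calls needed a Benjamini-Hochberg adjusted p under 0.05 over all genes and 1.3-fold, without a minimum fold for interactions. The scripts were tested on simulated data. An exact permutation test of 3 against 3 cannot go below p = 0.1 and was not used.

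Values are given per library for members called in a siRNA comparison, then for those with the lowest adjusted p up to 6 genes, and for the most abundant member of each of 9 roles; other list genes are named by the 3 lowest adjusted p per list and comparison. The members and lists were chosen with earlier results of these data known. Alternatives were a pseudocount of 0.1, no filter, trimmed-mean scaling (30% of ratios and 5% of levels trimmed at each end), 1 fit over 24 libraries, no trend, the replicate number as a block, no minimum fold, and leaving out each library. Same-numbered libraries did not deviate together over all genes, so the numbers were not taken to pair the samples. Over the members alone those of vWAT at d0 did (r = 0.80, 0.67 and 0.28), and whether they shared a source is not known here. An item withheld from this account is not reported here.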

Additional observations from a re-analysis of the deposited data

Results flagged for a closer look

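The siRNA effect of 7 gene and contrast pairs differed between groups by limma's interaction term. At d0 the effect on Xaf1 differed between the depots by -1.89 (BAT minus vWAT, log2). It was 1 of 36 members tested, where 0.569% of all genes were called lower, and it was called in 9 of 19 alternatives. On day 3 the effect on Ifitm3 differed between the depots by 0.48 and that on Trim25 by 0.46, both more positive in BAT. They were 2 of 33 members tested, where 7.02% of all genes were called higher. Ifitm3 was called in all 18 alternatives and Trim25 in 6. In BAT the effect differed between the days (d3 minus d0) by 0.61 for Ifitm3, 0.50 for Ifi35, 1.13 for Isg15 and 0.53 for Oasl2. They were 4 of 31 members tested, where 7.79% of all genes were called higher. Ifitm3 and Ifi35 were called in all 18 alternatives, Isg15 in 11 and Oasl2 in 2. Oasl2 lay under 1 FPKM in every BAT library on day 3. The single-group effects behind each are given in the report, and groups of 3 libraries are too small for a test of single outlying samples.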

How the results depend on the processing

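The siRNA calls among the members were few and partly fragile. In BAT at d0 the count called lower was 1 as reported, 2 with a pseudocount of 0.1, with 1 fit over all 24 libraries and with no minimum fold, and 0 with no filter on low values or with the replicate block, and 0 to 1 when 1 library was left out. In BAT on day 3 it was 1 to 2 called higher when 1 library was left out. In vWAT at d0, 4 members were called higher with 1 fit over all 24 libraries, where 110 of 14694 genes were. It was 0 in every other alternative, the replicate block included. The block raised the members with an unadjusted p below 0.05 from 13 to 27, against 2303 and 2138 of 13063 genes. Of the interactions, the depot difference at d0 (1 lower) gave 0 with no filter, 4 with 1 fit over all 24 libraries and 4 with the replicate block (Irf7, Isg15, Ifitm3 and Xaf1), and 0 to 1 when 1 library was left out. The depot difference on day 3 (2 higher) gave 1 with no filter and with trimmed-mean scaling, and 1 to 2 without 1 library. The day difference in BAT (4 higher) gave 2 with no filter and with 1 fit over all 24 libraries, and 2 to 4 without 1 library. From d0 to d3, BAT siH19 gave 3 higher with trimmed-mean scaling (6 as reported) and vWAT siCtrl 4 higher with the replicate block (7 as reported). Between depots on day 3 the count higher in BAT, 0 as reported, was 1 with trimmed-mean scaling and with no minimum fold, and 0 to 1 without 1 library. The causes were not tested.

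Over the members alone the vWAT d0 libraries of the same number deviated together (r = 0.80, 0.67 and 0.28), but over all tested genes they did not (r = -0.01, -0.06 and -0.03), so the block is given here only. The members' median difference kept its sign in BAT at d0 (-0.41 to -0.26) and in vWAT at d0 (0.29 to 0.66) under every alternative, and in vWAT on day 3 changed sign without siH19 replicate 2 (0.03, against -0.03). No called gene reversed its direction. The absence of counts limits genes near or below 1 FPKM, such as Mx1, Oas3, Rsad2 and Cmpk2.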
